A study of Homo sapiens with 3 samples.

Results

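Amino acid transporters are the membrane proteins that carry amino acids and related small molecules into, out of and within the cell. Genes were taken as members where their probe set listed a single symbol of the solute carrier families SLC1, SLC3, SLC6, SLC7, SLC36, SLC38 and SLC43, which gave 58 of the 18417 named genes. Of these, 31 (53.4%, against 63.6% of all named genes) were above background in total RNA and 27 were not, and those 27 are called silent here. Measurements came from H9, a widely used line of human embryonic stem cells, kept pluripotent in culture. The study took 3 kinds of RNA and ran 1 Affymetrix gene array on each: RNA bound to polysomes, which are mRNAs loaded with several ribosomes, RNA of the polysome-free pool (unbound), and total RNA. All came from the same line, for which the labels give no treatment, and the submitters used a different column kit for total RNA than for the polysome pools. Each source has 1 array, so no difference below could be checked against replicates, and no p-value is given.

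The families divide by mechanism. SLC7 light chains are exchangers that reach the plasma membrane only when joined by a disulfide bond to a heavy chain of the SLC3 family, while the cationic SLC7 carriers work alone. SLC1 and SLC38 carriers use the sodium gradient to accumulate glutamate, glutamine and other small amino acids. Some SLC36 carriers use protons, and SLC43 carriers let large neutral amino acids pass down their gradient. SLC6 holds sodium- and chloride-coupled carriers of amino acids, osmolytes, creatine and neurotransmitters. Transport of leucine, glutamine and arginine sets the supply for protein synthesis and the signal to the growth kinase mTORC1, and pluripotent cells are known to depend on amino acid uptake for growth.

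All values are log2 expression values, and background is the 95th percentile of 483 tissue-restricted genes (receptors of smell and taste, defensins and keratin-associated proteins) on the same array. That level was 4.40 in bound RNA, 3.56 in unbound RNA and 3.76 in total RNA. Beside the 63.6% of all genes, 22 of 27 measured pluripotency markers were above background in total RNA, as were 15 of 21 germ layer, 5 of 10 trophoblast or amnion and 13 of 15 fibroblast markers. In bulk RNA, fewer cells of a type and less RNA per cell cannot be told apart. The bound array was brighter for most genes, with 11312 of 12063 genes higher than on the unbound array as deposited. Those 12063 genes passed a level filter (3-array mean above 3.84). Over them the bound median exceeded the unbound one by 1.26 and the total RNA one by 1.03, and the unbound median differed from total RNA by -0.23. A relative difference is the log2 difference minus this offset. A negative relative difference between bound and unbound RNA smaller than the offset is therefore positive as deposited. As a gauge of precision within these arrays, 468 genes had a second probe set past the level filter, and the bound minus unbound differences of such a pair differed by a median of 0.14, with a 90th percentile of 1.02.

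The start of the mRNA is shown first, because polysome loading is known to depend on it in mRNAs that begin with a terminal oligopyrimidine tract. Each line gives 15 bases before and 15 bases from the RefSeq start (GRCh38.p14), with the initial 5 transcribed bases in capitals. The members are ordered from the bound to the unbound side of the comparison described below. RPS21, a ribosomal protein mRNA far on the unbound side (relative difference -3.45), is added as an example of the tract. It was picked for its low difference among ribosomal protein genes with the tract, so that value is an extreme by choice.
SLC7A5 (chr16:87869493-87869522, minus strand): cgggcggggttcctgACGCAgctgcgggcg
SLC38A1 (chr12:46266502-46266531, minus strand): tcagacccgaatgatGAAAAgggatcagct
SLC38A2 (chr12:46372759-46372788, minus strand): tcgcagggctgctccACAGCcgcgcgacgc
SLC3A2 (chr11:62881684-62881713, plus strand): gcggcgccagaagccAGTTGcaaccggttt
SLC7A7 (chr14:22819777-22819806, minus strand): cctgttttccatttcAGTCCccgttaccct
RPS21 (chr20:62387088-62387117, plus strand): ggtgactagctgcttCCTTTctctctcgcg
Of the 31 members above background, 26 had an entry in the RefSeq promoter table, and SLC6A6, SLC7A11, SLC7A2, SLC7A3 and SLC7A4 had none. A C followed by 4 pyrimidines at the start was found in 0 of these 26, against 32 of 50 ribosomal protein genes (64%) and 519 of 9714 genes past the level filter (5.34%). With the C allowed within 5 bases of the start, the counts were 4 of 26 (SLC1A3, SLC7A10, SLC36A1 and SLC36A4), 40 of 50 and 2225 of 9714 (22.9%). Among the 4, both SLC36 genes lay on the bound side of zero and the other two on the unbound side. RefSeq lists 1 start per gene here, so other starts of these genes were not searched.

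Several amino acid transporter genes are known targets of ATF4, a transcription factor made when amino acids are short. Its binding element, the amino acid response element, was searched as TGATGNAA on both strands of the window from 250 bases before to 50 after the start. It was present in 4 of 26 members above background (15.4%), 0 of 19 silent members with an entry and 162 of 9714 genes past the level filter (1.67%), and in 1003 of all 27305 promoters (3.67%). The matches are shown with the 8 bases in capitals.
SLC1A3 (chr5:36596357-36596386, plus strand): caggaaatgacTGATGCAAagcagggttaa
SLC38A1 (chr12:46266502-46266531, minus strand): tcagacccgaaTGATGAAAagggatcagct
SLC7A1 (chr13:29595663-29595692, minus strand): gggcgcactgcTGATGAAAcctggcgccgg
SLC3A2 (chr11:62881719-62881748, plus strand): gtaatgtgcaggactccTTACATCAgctcc
In SLC3A2 the match reads on the opposite strand of the gene. Counted from the start, the first capital lies at base -220 in SLC1A3, -4 in SLC38A1, 8 in SLC7A1 and 38 in SLC3A2. Only the SLC1A3 match thus lies wholly before the start. The 4 genes were spread over the polysome comparison, with relative bound minus unbound differences of 0.74 for SLC38A1, 0.58 for SLC7A1, -0.76 for SLC1A3 and -1.04 for SLC3A2. A match is a description of these letters and not a measured binding site.

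Bound and unbound RNA were compared to ask how the transporter mRNAs divide between polysomes and the polysome-free pool. Of the 31 members above background in total RNA, SLC38A5 and SLC6A11 were at background on both polysome arrays, so their bound minus unbound difference was not measured and they are left out here, a choice made after seeing the data. The other 29 members spread to both sides, from SLC7A5 (1.35) and SLC7A11 (1.18) on the bound side to SLC7A7 (-1.31) and SLC3A2 (-1.04) on the unbound side. At least 2-fold apart after centring were these 4. Of them 2 were higher (6.90% of members, against 6.35% of all genes) and 2 lower (6.90%, against 9.91% of all genes). Over the 11469 genes also above background in total RNA and on a polysome array, these shares were 6.55% and 9.87% and the median -0.051. The median over the 29 members was 0.092, against -0.068 over all genes, and 17 members were above 0 and 12 below, among them SLC7A4, at background on the unbound array. With SLC38A5, SLC6A11 and the silent SLC6A15, SLC6A16 and SLC1A4, 34 members passed the level filter, and over these the 2-fold counts were 2 and 2 and the median 0.026, with 18 above 0 and 16 below.

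As deposited, bound RNA was at least 2-fold higher for 18 of 29 members and at least 2-fold lower for 0, against 61.4% and 1.56% of all genes, and 28 of 29 had a positive difference. The direction of 11 members therefore depends on whether the offset is removed. The calls also depended on the scaling. SLC7A5, SLC7A11 and SLC7A7 kept their side and their 2-fold call under both other scalings, whereas SLC3A2 fell short of the line with the lowess trend removed (-0.97) and under quantile normalization (-0.83). Quantile normalization took SLC38A1 (1.28), SLC1A1 (1.15), SLC6A6 (1.06) and SLC36A4 (1.02) past 2-fold on the bound side. Under it 6 of 29 members were higher (20.7%, against 10.8% of all genes) and 1 lower (3.45%, against 7.29%). The median over all genes moved too, to 0.13 from -0.068 after centring. Among members above background on both polysome arrays, the sign turned for SLC38A10 with the lowess trend removed and for SLC38A2 under quantile normalization.

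**Figure D1:**
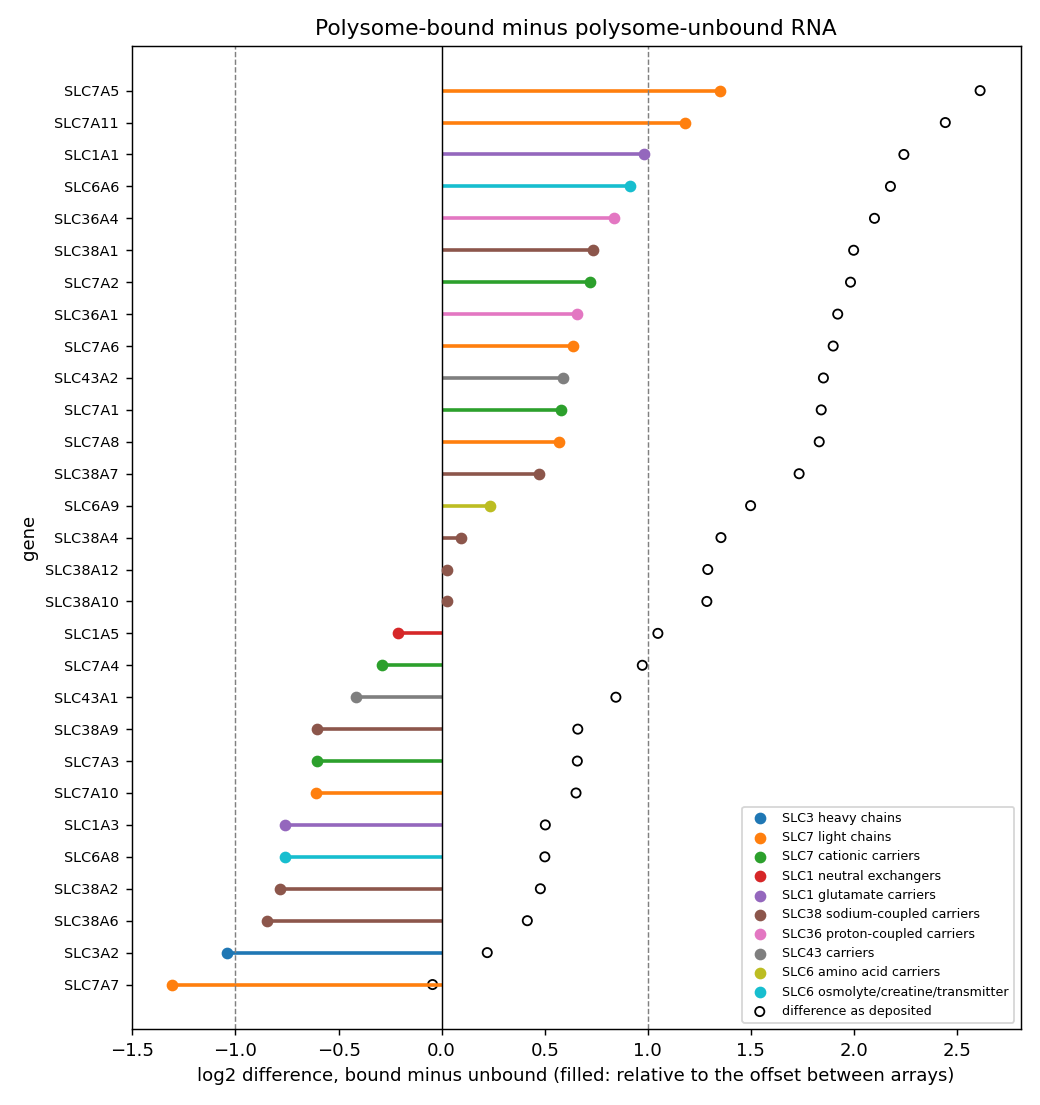
Log2 difference of polysome-bound minus polysome-unbound RNA for the 29 transporters above background in total RNA and on a polysome array, 1 gene per row in order of the relative difference (filled points and bars, coloured by role group) with the difference as deposited as open circles. Dashed lines mark 2-fold; SLC7A5 and SLC7A11 lie beyond it on the bound side and SLC3A2 and SLC7A7 on the unbound side, while the open circles lie to the right of 0 for all genes shown but SLC7A7. The unbound value of SLC7A4 is at background.

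SLC3A2 lay apart from its light chains SLC7A5 and SLC7A11. SLC3A2, the heavy chain that brings light chains to the surface, had 9.09 in bound, 8.86 in unbound and 9.07 in total RNA. SLC7A5, the leucine exchanger that pairs with it, had 9.62 in bound, 7.01 in unbound and 8.59 in total RNA. SLC7A11, which takes up cystine in exchange for glutamate and so feeds glutathione synthesis, had 8.90 in bound, 6.46 in unbound and 7.95 in total RNA. All 3 were well above background on every array, but SLC3A2 was nearly level between bound and unbound RNA as deposited (0.22) while SLC7A5 (2.61) and SLC7A11 (2.44) were far higher in bound RNA. The gap in bound minus unbound difference was 2.39 between SLC7A5 and SLC3A2 and 2.22 between SLC7A11 and SLC3A2. Such a gap between genes does not depend on the offset, and with the lowess trend removed it was 2.28 and 2.09. Quantile normalization gave 2.42 and 2.18. In rank among the 12063 genes, SLC7A5 stood at percentile 97.9, SLC7A11 at 96.3 and SLC3A2 at 9.13.

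The other light chains took both sides. SLC7A6, an exchanger of cationic for neutral amino acids, had 7.84 in bound, 5.94 in unbound and 6.01 in total RNA, a relative bound minus unbound difference of 0.64. SLC7A8, a second exchanger of neutral amino acids, had 9.57 in bound, 7.74 in unbound and 8.90 in total RNA and a relative difference of 0.57. Both were on the bound side. SLC7A7, which shares its transport activity with SLC7A6 and is mutated in lysinuric protein intolerance, had 5.17 in bound, 5.21 in unbound and 4.35 in total RNA. It was the member furthest to the unbound side (-1.31, or -0.044 as deposited) and the only one of the 29 whose deposited value was higher in unbound than in bound RNA. It lay beside the heavy chain, with a gap of -0.27 from SLC3A2. SLC7A10, a carrier of small neutral amino acids and D-serine in brain, had 5.36 in bound, 4.71 in unbound and 4.89 in total RNA and a relative difference of -0.61. SLC7A7 and SLC7A10 were above the 95th percentile of background in total RNA but below its 99th percentile of 4.98, and their differences rest on dim signal. The 6 light chains above background had a median of 0.60.

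Cationic carriers import arginine, lysine and ornithine. SLC7A1, the widely expressed arginine carrier, had 7.34 in bound, 5.49 in unbound and 7.27 in total RNA, with a relative bound minus unbound difference of 0.58. SLC7A2, whose splice forms differ in affinity, had 7.70 in bound, 5.71 in unbound and 6.69 in total RNA and 0.72. SLC7A3, a carrier otherwise best known from brain, had 7.55 in bound, 6.89 in unbound and 8.48 in total RNA and -0.60. SLC7A1 and SLC7A2 thus lay on the bound side and SLC7A3 on the unbound side, with a gap of 1.18 between SLC7A1 and SLC7A3 and 1.33 between SLC7A2 and SLC7A3. The gap of SLC7A1 and SLC7A3 was 1.17 with the lowess trend removed and 1.25 under quantile normalization. SLC7A4, a relative whose substrate is unsettled, was close to background at 4.49 in bound, 3.51 in unbound and 3.89 in total RNA, the unbound value being below it. Its deposited bound value was therefore at least 1.90-fold above the unbound one, which is less than the offset between these arrays (1.26 on the log2 scale). Its relative difference was -0.29 with the unbound value at background, so its side after centring was not measured.

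**Figure D2:**
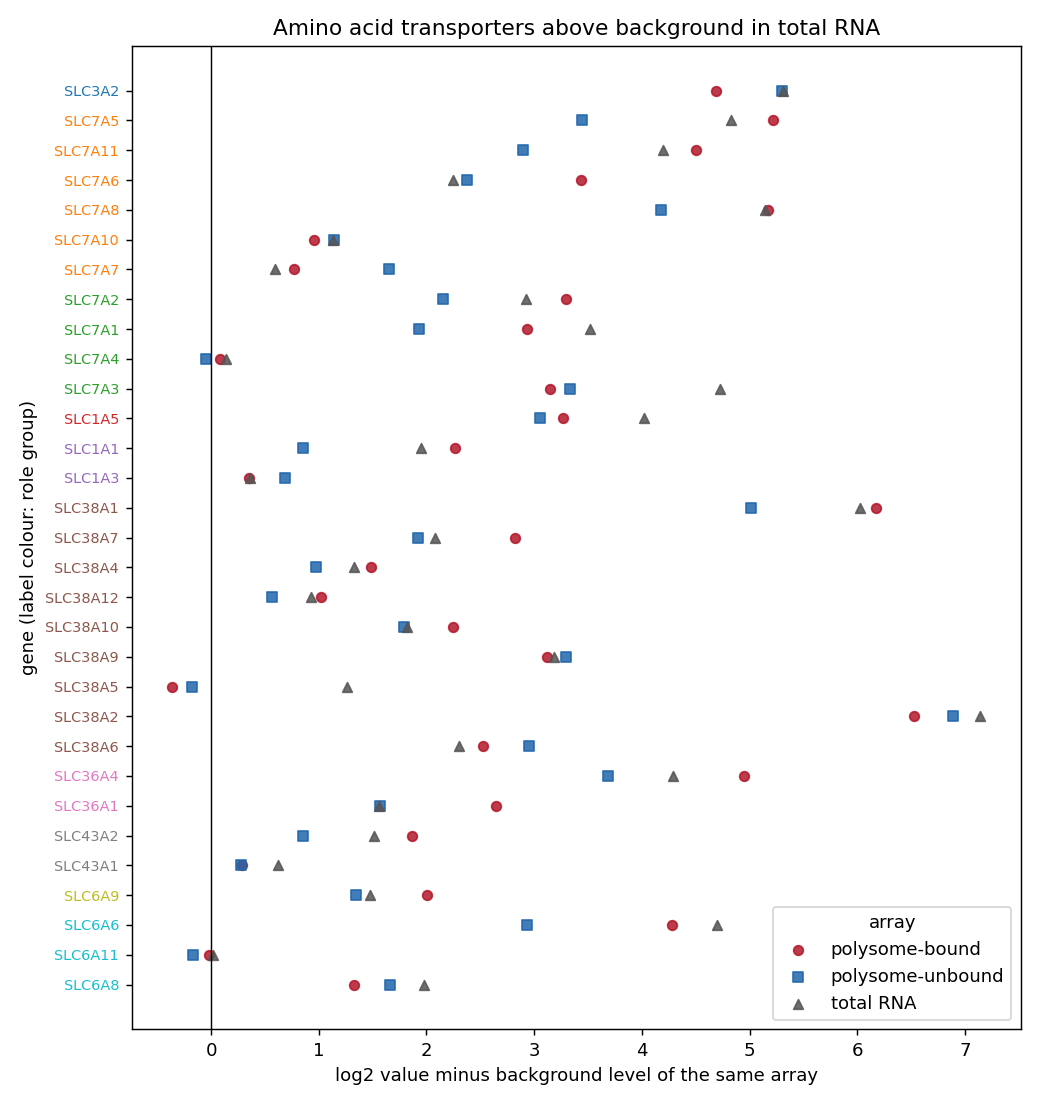
Log2 value minus the background level of the same array for the 31 transporters above background in total RNA, with bound (circles), unbound (squares) and total RNA (triangles) in each row and genes grouped by role. SLC3A2 is nearest to total RNA on the unbound array, while SLC7A5 and SLC7A11 have their lowest point there; SLC38A5 and SLC6A11 are below 0 on both polysome arrays.

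In the SLC1 family, 3 of 7 members were above background in total RNA. SLC1A5, the main glutamine exchanger of proliferating cells, had 7.67 in bound, 6.62 in unbound and 7.78 in total RNA, with a relative bound minus unbound difference of -0.21. A second, dimmer probe set of SLC1A5 gave -0.60, so both were on the unbound side after centring and on the bound side as deposited (1.05 and 0.66). SLC1A1, a glutamate carrier that also imports cysteine, had 6.66 in bound, 4.42 in unbound and 5.71 in total RNA and a relative difference of 0.98, just inside the 2-fold line, which it passed after quantile normalization (1.15). SLC1A3, the glutamate carrier of astrocytes, had 4.76 in bound, 4.25 in unbound and 4.12 in total RNA and -0.76. The 2 glutamate carriers thus lay on opposite sides, with SLC1A3 near background on every array. SLC1A4, the close relative of SLC1A5 that carries serine and alanine, was silent in total RNA and is described with the silent members.

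In the SLC38 family, 9 of 12 members were above background in total RNA. SLC38A1 and SLC38A2 both take up glutamine and alanine with sodium, and SLC38A2 is known to be induced when amino acids are short. SLC38A1 had 10.58 in bound, 8.58 in unbound and 9.79 in total RNA. SLC38A2 had 10.93 in bound, 10.45 in unbound and 10.90 in total RNA. Their relative bound minus unbound differences were 0.74 and -0.78, a gap of 1.52. It became 1.03 with the lowess trend removed and 1.04 with quantile normalization. SLC38A2 lies at the bright end of the arrays, and its value was -0.078 without the lowess trend and 0.25 when arrays were quantile normalized, so its side depends on the scaling. SLC38A4, the third carrier of this subgroup, had 5.89 in bound, 4.53 in unbound and 5.09 in total RNA and a relative difference of 0.092.

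The lysosomal SLC38 carriers also parted. SLC38A7, which exports glutamine from lysosomes, had 7.22 in bound, 5.49 in unbound and 5.84 in total RNA, with a relative bound minus unbound difference of 0.47. SLC38A9, the lysosomal arginine sensor that signals to mTORC1, had 7.52 in bound, 6.86 in unbound and 6.95 in total RNA and -0.60. SLC38A7 was thus on the bound side and SLC38A9 on the unbound side after centring. SLC38A6, whose physiological substrate is less clear, had 6.93 in bound, 6.51 in unbound and 6.06 in total RNA and lay further to the unbound side (-0.85). SLC38A10 (0.024) and SLC38A12 (0.028), both little studied, were near the middle. SLC38A5, a glutamine and histidine carrier, was above background in total RNA (5.02) and at background on the bound (4.04) and unbound (3.39) arrays, so its bound minus unbound difference is not measured.

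Both SLC36 carriers above background were on the bound side. The 2 SLC43 carriers were on opposite sides after centring, with SLC43A1 near background. SLC36A1, a proton-coupled carrier of lysosomes and the plasma membrane, had 7.05 in bound, 5.13 in unbound and 5.32 in total RNA and a relative bound minus unbound difference of 0.66. SLC36A4, which has high affinity for proline and tryptophan, had 9.35 in bound, 7.25 in unbound and 8.05 in total RNA and 0.84. SLC36A4 passed the 2-fold line after quantile normalization (1.02). SLC43A2, a facilitator for leucine and related amino acids, had 6.27 in bound, 4.42 in unbound and 5.27 in total RNA and 0.59. SLC43A1, its close relative, was dimmer at 4.69 in bound, 3.84 in unbound and 4.39 in total RNA and had -0.42. It was below the 99th percentile of background on every array, so its side rests on dim signal. With the lowess trend removed its value was -0.17, and under quantile normalization -0.049.

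In the SLC6 family 4 of 18 members were above background in total RNA. SLC6A9, the glycine carrier that ends glycinergic signalling in brain and supplies glycine elsewhere, had 6.41 in bound, 4.91 in unbound and 5.23 in total RNA, a relative bound minus unbound difference of 0.24. SLC6A6, which imports the osmolyte taurine, had 8.68 in bound, 6.50 in unbound and 8.45 in total RNA and 0.91. SLC6A8, the creatine carrier, had 5.72 in bound, 5.22 in unbound and 5.74 in total RNA and -0.76. Taurine and creatine carriers thus lay on opposite sides on these probe sets. The value of SLC6A8 is uncertain, because 2 further probe sets that it shares with the pseudogenes SLC6A10P and SLC6A10PB gave 0.64 each. SLC6A11, a GABA carrier, was at the background line in total RNA (3.78) and below it on the bound (4.38) and unbound (3.40) arrays.

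Of the 27 silent members, 14 were SLC6 genes, 4 SLC1, 3 SLC7, 3 SLC38, 2 SLC36 and 1 SLC3. In total RNA they had values from 2.83 to 3.66 with a median of 3.17, in bound RNA from 3.22 to 5.54 with a median of 3.71, and in unbound RNA from 2.58 to 3.89 with a median of 2.81. They include the neurotransmitter carriers SLC6A2, SLC6A3 and SLC6A4, the kidney and gut carriers SLC6A18, SLC6A19 and SLC6A20, the glial glutamate carrier SLC1A2 and the heavy chain SLC3A1 of the cystine carrier of kidney. At background on all 3 arrays were 23 of the 27. SLC6A16, an orphan carrier, was the exception with most signal, at 5.54 in bound, 3.89 in unbound and 3.64 in total RNA. Its bound value was thus at least 3.44-fold above total RNA as deposited. Its relative bound minus total difference was 0.88 with the total RNA value at background, so the size of that difference was not measured. SLC1A4 was above background in bound (4.67) and unbound RNA (3.77) and below it in total RNA (3.59), so its bound value was at least 1.88-fold above total RNA as deposited. That is less than the offset between these arrays (1.03 on the log2 scale). The relative bound minus total difference of SLC1A4 was 0.044 with the total RNA value at background, so its side after centring was not measured. SLC6A3, the dopamine carrier, was just above background in bound RNA alone (4.49), and SLC7A9, the light chain of SLC3A1, in unbound RNA alone (3.61). All 4 were below the 99th percentile of background (5.93 for bound and 4.44 for unbound RNA).

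**Figure D3:**
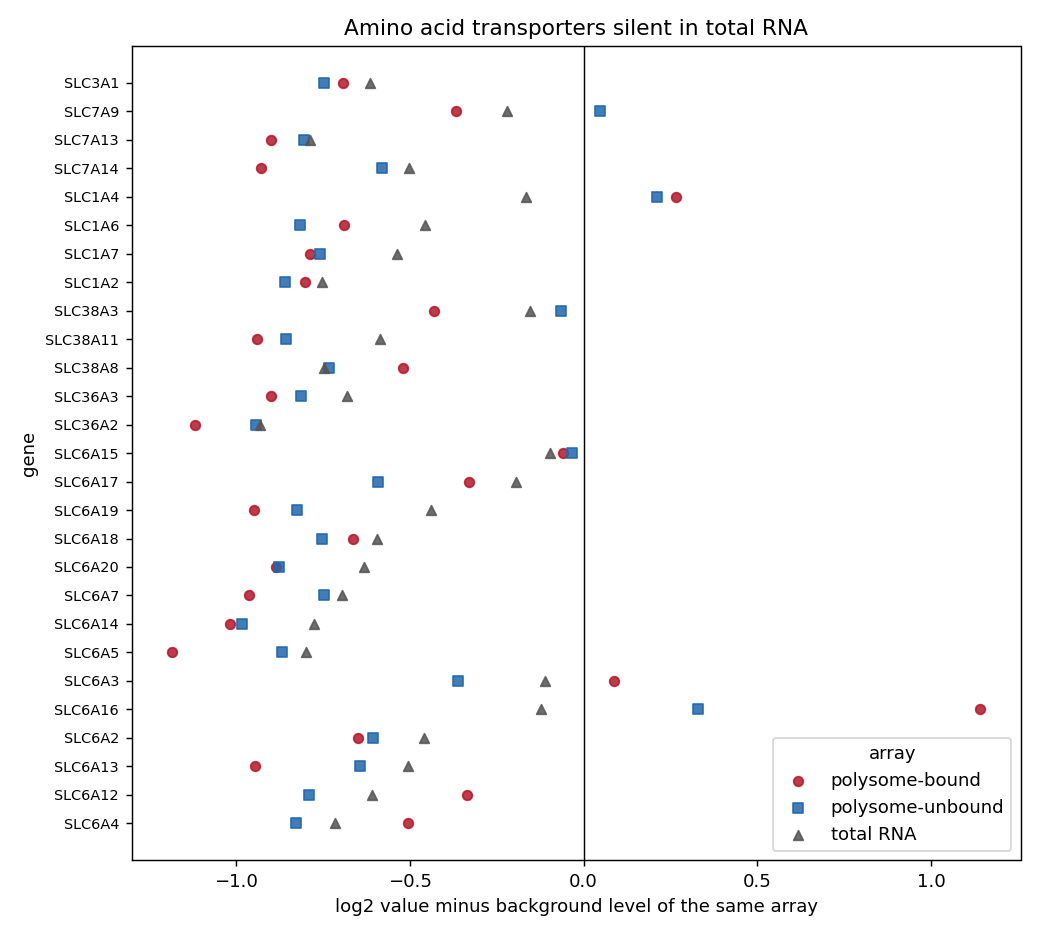
Log2 value minus the background level of the same array for the 27 transporters silent in total RNA, with bound (circles), unbound (squares) and total RNA (triangles) in each row. SLC6A16 and SLC1A4 are to the right of 0 on both polysome arrays, SLC6A3 on the bound array and SLC7A9 on the unbound array; the other 23 genes are at or left of 0 on all 3 arrays.

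Total RNA was the value that chose the 31 members, so their differences from it are given as a description, and nothing is read from the counts below. The 29 members also above background on a polysome array stand beside the 11469 genes that meet the same conditions. In bound RNA 0 of 29 members were at least 2-fold higher than in total RNA after centring (2.42% of those genes, and 2.66% of all 12063) and 4 were lower (13.8%, against 6.57% and 6.41%). The median was -0.24, against -0.15 over the 11469 genes. The 4 were SLC7A3 (-1.96), SLC1A5 (-1.14), SLC6A8 (-1.04) and SLC3A2 (-1.02), and SLC38A2 (-0.999) was just short of the line.

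These values moved with the scaling. SLC7A3 was past the line with the lowess trend removed (-1.79) and under quantile normalization (-1.74), and SLC6A8 likewise (-1.05 and -1.04). SLC3A2 was not (-0.66 and -0.64), and SLC38A2 came to -0.19 and -0.15. SLC1A5 passed with the lowess trend removed (-1.01) and fell short under quantile normalization (-0.96). The 2 probe sets that SLC6A8 shares with its pseudogenes gave -0.21 and -0.22. SLC7A6 (0.80) and SLC36A1 (0.70) were furthest above total RNA. As deposited, 8 of 29 passed 2-fold upward and 0 downward, against 39.6% and 0.575% of the 11469 genes (40.1% and 0.572% of all genes). SLC7A3 (-0.93), SLC1A5 (-0.11) and SLC6A8 (-0.015) had a negative deposited difference.

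In unbound RNA 1 of 29 members was at least 2-fold higher than in total RNA after centring, SLC7A7 (1.09), against 7.81% of the 11469 genes and 8.09% of all genes. It was short of the line under quantile normalization (0.94). Lower were 6 (20.7%, against 10.4% and 9.96%): SLC6A6 (-1.72), SLC7A1 (-1.55), SLC7A3 (-1.36), SLC7A5 (-1.35), SLC7A11 (-1.26) and SLC1A1 (-1.06). All 6 stayed past the line with the lowess trend removed and under quantile normalization. The median was -0.31, against -0.095 over the 11469 genes. As deposited, 9 of 29 passed 2-fold downward (16.7% of those genes, 16.0% of all) and 0 upward (5.19% and 5.42%).

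Both comparisons share the total RNA array, so the values are set side by side only. For SLC7A5, bound minus total was -0.0023 after centring, 0.36 with the lowess trend removed and 0.42 under quantile normalization. For SLC7A11 it was -0.082, 0.15 and 0.19, so the sign of both depends on the scaling, while both were lower in unbound RNA under all 3. The bound minus total sign of SLC38A1, SLC7A2 and SLC7A8 turned under both other scalings too, and that of SLC38A10 under quantile normalization. For SLC3A2, bound minus total was -1.02 and unbound minus total 0.023 after centring. SLC7A3 was at least 2-fold lower in both fractions. SLC38A5, at background in both fractions, has only a limit: as deposited it was at least 1.54-fold lower in bound and at least 2.75-fold lower in unbound than in total RNA. Because total RNA was extracted with another kit than the fractions, a difference of kit and a difference of source cannot be told apart in these values.

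**Figure D4:**
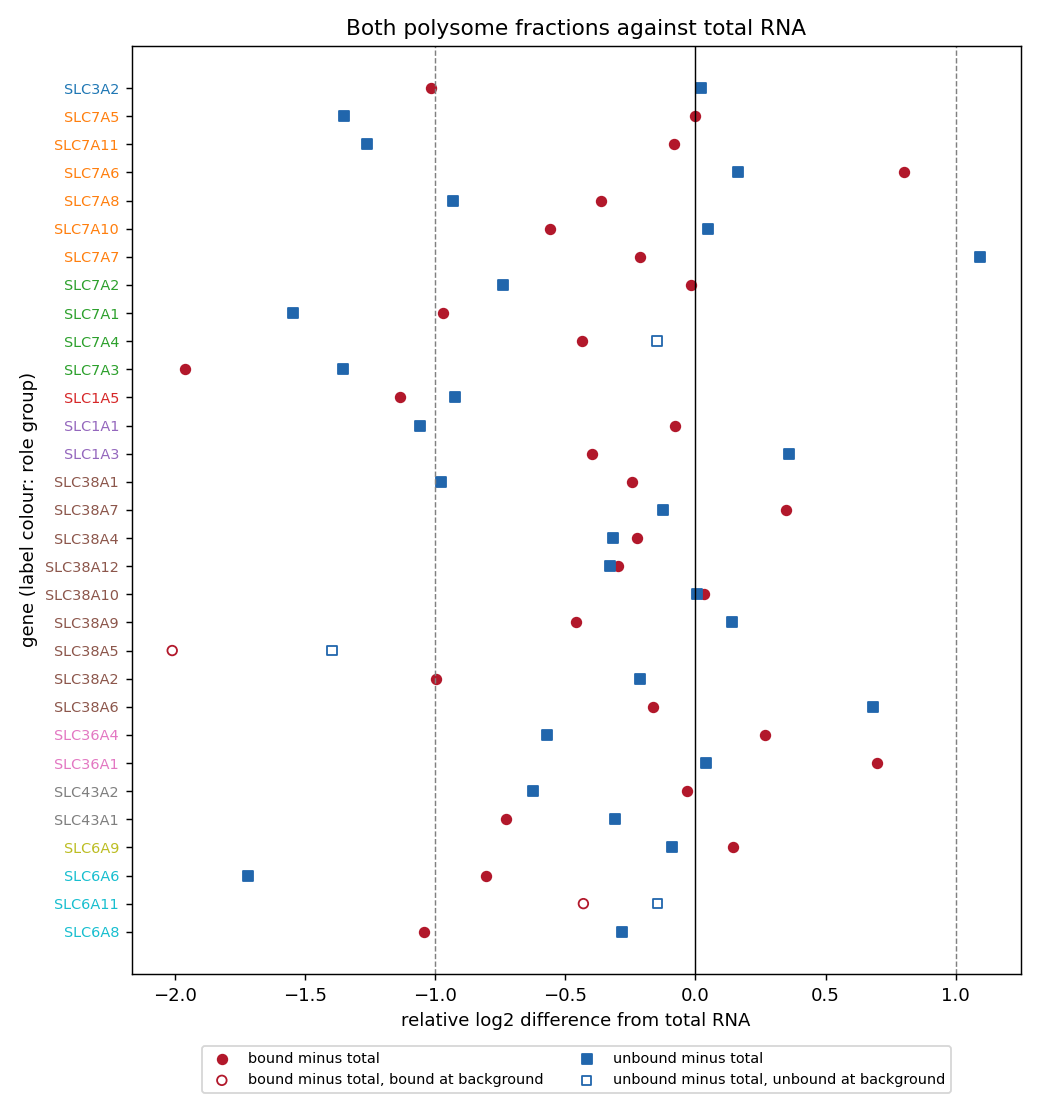
Relative log2 difference from total RNA of bound (circles) and unbound RNA (squares) for the 31 transporters above background, grouped by role, with dashed lines at 2-fold. Open symbols mark a fraction at background. Among filled points, SLC7A5, SLC7A11, SLC6A6, SLC7A1 and SLC1A1 have the unbound one beyond -1, SLC3A2, SLC1A5 and SLC6A8 the bound one and SLC7A3 both, and SLC7A7 has its unbound point beyond 1.

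The transporters were set beside other solute carriers in the comparison of bound and unbound RNA. Those other carriers met the level filter alone, and under it the 34 transporters had a median relative difference of 0.026. The 153 other SLC genes past the level filter, without the mitochondrial SLC25 family, had a median relative difference of 0.083, with 9 at least 2-fold higher (5.88%, against 6.35% of all genes) and 7 lower (4.58%, against 9.91%). The 37 SLC25 genes had a median of -0.36, with 1 higher (2.70%) and 6 lower (16.2%). With 1 array per source no test of these differences between families is possible. Across the 29 members, the relative difference was larger for genes with a longer genomic span (Spearman's rho 0.40, Pearson's r with log10 span 0.41). Over 12054 genes with a span, the rho was 0.25. With the level in total RNA, the rho was 0.26 over the 29 members and 0.16 over the 12063 genes past the level filter. In each case the differences come from the same 2 arrays.

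**Figure D5:**
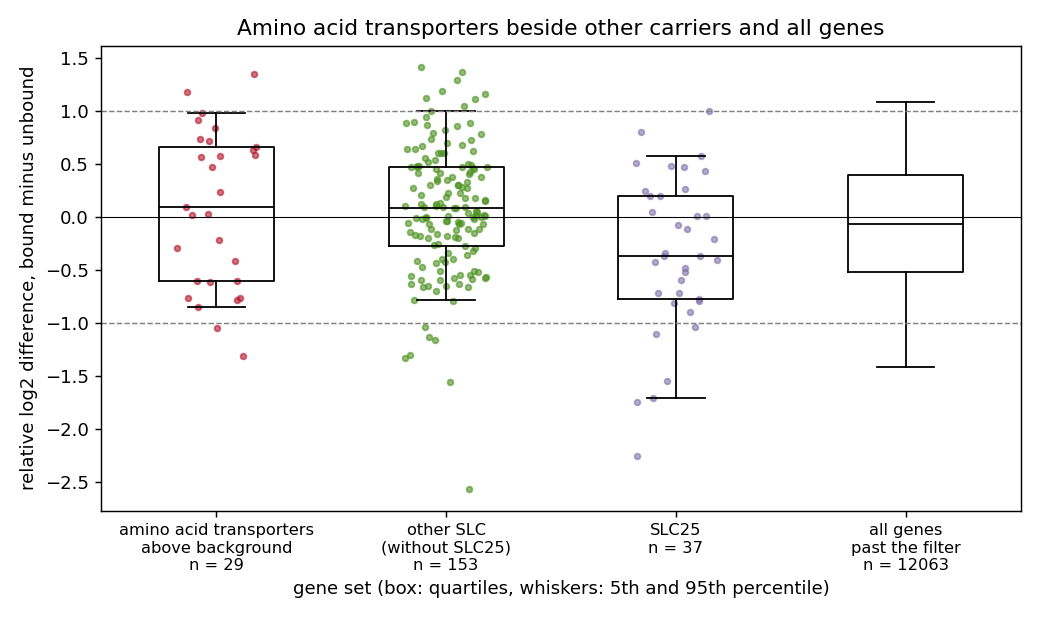
Relative log2 difference of bound minus unbound RNA for the 29 amino acid transporters above background in total RNA and on a polysome array, 153 other SLC genes, 37 SLC25 genes and all 12063 genes past the level filter; boxes are quartiles, whiskers the 5th and 95th percentiles across genes, and points single genes. The medians are 0.092, 0.083, -0.36 and -0.068. Only the 29 transporters also had to be above background in total RNA and on a polysome array, and the 34 past the level filter alone had a median of 0.026.

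The transporters act with a signalling pathway and a stress response that sense amino acids. Of 36 listed genes of amino acid sensing by mTORC1, 32 passed the level filter, with a median relative bound minus unbound difference of 0.22. Highest were FNIP2 (1.57), a partner of the folliculin complex, the Rag GTPase RRAGC (0.96) and the kinase MTOR (0.87). Lowest were MLST8 (-1.03), a subunit of the mTOR complexes, the Rag GTPase RRAGA (-0.96) and NPRL3 (-0.64) of the GATOR complex. Of the 32, FNIP2 alone was at least 2-fold higher (3.12%, against 6.35% of all genes) and MLST8 alone at least 2-fold lower (3.12%, against 9.91%). As deposited all 32 were positive, as were 11312 of all 12063 genes.

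The list of the amino acid response had 21 of 24 genes past the filter and a median of -0.15, with 1 gene at least 2-fold higher (4.76%, against 6.35% of all genes) and 2 lower (9.52%, against 9.91%). GCN1 (1.27) and the kinase EIF2AK4 (0.98), which detect uncharged tRNA, were highest, followed by PSPH (0.70) of serine synthesis. ATF4 (-1.36), the transcription factor of the response, and its target ASNS (-1.16), which makes asparagine, were lowest, followed by SHMT2 (-0.90) of mitochondrial glycine metabolism. As deposited ATF4 was at -0.10 and ASNS at 0.11, so the side of ASNS depends on the scaling. Of 21 listed carriers of amino acids from other families, 13 passed the filter and 0 were 2-fold apart (6.35% and 9.91% of all genes), from SLC25A15 (0.44), CTNS (0.27) and SLC25A12 (0.20) to SLC66A1 (-0.57), SLC25A38 (-0.79) and CLTRN (-0.81). CTNS and SLC66A1 export cystine and cationic amino acids from lysosomes, SLC25A15, SLC25A12 and SLC25A38 serve mitochondria, and CLTRN is a chaperone of kidney SLC6 carriers.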

How the data were processed

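H9 cell RNA was measured on 1 array each for polysome-bound, polysome-unbound and total RNA. The deposited values are log2, 1 per probe set. The submitters' processing notes list Partek (6.5) and RMA, without saying what each did. Their distributions differ between columns, and how arrays were scaled to each other is unknown. All bound values have 7 decimals and end in the same 2 digits, against at most 5 decimals in the other columns; an added constant would shift deposited but not relative differences. No genome build is named in the labels.

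Of 33297 probe sets, 19460 list 1 gene symbol in GEO's platform annotation, 1754 several and 12083 are not listed. Genes were named from the first kind, with 19429 gene IDs matched to RefSeq (GRCh38.p14). For 769 genes with more than 1 probe set the brightest was kept, giving 18417 genes. Genes counted as apart at a relative log2 difference of 1, with no test. Precision is limited by the number of arrays. All members may be named, and of each further list the 3 highest and 3 lowest. Of the list of other carriers, members matched under a newer symbol were not counted in it. Members and lists were chosen with earlier results of these data known. Alternatives were the deposited values, quantile normalization, a lowess trend (span 0.3), other filters, probe set choices and thresholds. Scripts were tested on simulated data. The tools were Python (3.11.15) with matplotlib (3.10.9), statsmodels (0.14.6), pandas (2.3.3) and numpy (2.4.6).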

Additional observations from a re-analysis of the deposited data

How the results depend on the processing

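The counts here are over the 34 members past the level filter, and each choice was changed alone. Of 87 alternatives, 48 kept counts within 1.5 times, or medians within the median gap between probe sets of a gene, and 39 moved; the cause was not tested. The numbers 2 higher, 2 lower and a median of 0.026 for bound minus unbound became 19, 0 and 1.29 as deposited. They became 6, 1 and 0.28 under quantile normalization (32 members), 4, 1 and -0.28 with no level filter (58 members), 10 and 10 at 1.5-fold and 0 and 0 at 3-fold. As deposited, 55.9% of members were higher and 0% lower, against 61.4% and 1.56% of all genes (median 1.20). Under quantile normalization these were 18.8% and 3.12%, against 10.8% and 7.29% of all genes (median 0.13). Shares over all genes are not given for other filters and thresholds, so those counts describe the settings only. Lower members were 1 after lowess and 1 with the 99th percentile filter (23 members), which gave a median of 0.59. For bound minus total, 0 higher, 5 lower and a median of -0.27 became 10, 0 and 0.76 as deposited, and 1 and 3 under quantile normalization. Of all genes, 40.1% were higher and 0.572% lower as deposited, and 3.24% and 3.41% under quantile normalization. Lowess gave 1 higher and a median of -0.10, no filter a median of -0.45, and the 99th percentile filter 2 lower and a median of -0.064. At 1.5-fold 3 were higher and 9 lower, and at 3-fold 2 were lower. For unbound minus total, 1 higher, 7 lower and a median of -0.25 became 0 higher and -0.48 as deposited, 0 and -0.42 under quantile normalization, and 0 and -0.49 with the 99th percentile filter. Lower members were 10 as deposited (29.4%) and 7 of 32 under quantile normalization (21.9%). Of all genes, 5.42% were higher and 16.0% lower as deposited, and 7.37% and 9.70% under quantile normalization. At 1.5-fold the counts were 2 higher and 12 lower, at 3-fold 0 and 1. Members above background in total RNA were 24 with the 99th percentile of background and 37 with the 90th, against 31. Counting only the 29 members above background in total RNA and on a polysome array, chosen after seeing the data, gave 2 and 2, 0 and 4, and 1 and 6. Removing the filter changes the offset, because genes at background then enter the medians. It also adds the 24 members that did not pass the filter, so its counts and median are of another set of members. No paired analysis was possible because each source has 1 array, and no replicate could be left out.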

Other observations

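Probe sets that list several genes were not used for members. A probe set shared by SLC43A3, a nucleobase carrier despite its family, and PRG2 had 5.49 in bound, 4.37 in unbound and 5.18 in total RNA, above background on each array, with a relative bound minus unbound difference of -0.14. The 2 probe sets shared by SLC6A8 and its pseudogenes had 6.23 and 6.03 in bound, 4.33 and 4.12 in unbound and 5.42 and 5.22 in total RNA. Their relative difference of 0.64 is on the other side of zero from the -0.76 of the probe set that lists SLC6A8 alone, and which of them follows the creatine carrier was not tested. SLC7A14, silent in total RNA, has 2 probe sets, both at background on every array.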
